A study of Mus musculus with 211 samples.

Results

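Transcripts of 8 genes were followed across single cells sorted from the adult mouse cochlea: the chemokine genes Ccl3, Ccl4, Ccl6, Ccl9, Cxcl1 and Cxcl2, the cytokine gene Tnf, and Ccrl2, which encodes a receptor-like protein. The genes were taken by name from the 48709 genes of the count table, and all 8 were found by their Ensembl identifiers. The cells came from CD1 mice that carried the Lfng-EGFP transgene, an artificial chromosome in which the sequences of Lfng, a gene active in cochlear supporting cells (SCs), drive a green fluorescent protein (GFP). Cells were sorted for GFP by flow cytometry (FACS), captured one by one on the Fluidigm C1 platform and sequenced as full-length cDNA. The table held 211 cells, from 8 captures at postnatal day 60 (P60) and 4 captures at postnatal day 120 (P120). Every capture pooled cochleae of several mice of either sex and every mouse carried the transgene, so captures, not cells, were taken as the replicates, and p-values measure the spread between captures.

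Chemokines are small secreted proteins that draw leukocytes along a gradient by binding receptors on their surface. Ccl3, Ccl4, Ccl6 and Ccl9 are CC chemokines, of which Ccl3, Ccl6 and Ccl9 signal through the receptor Ccr1, while Cxcl1 and Cxcl2 are CXC chemokines that call neutrophils through Cxcr2. Tnf is a cytokine that activates NF-κB in the cells it reaches, and NF-κB is a known activator of chemokine genes and of Tnf itself. Ccrl2 binds the chemoattractant chemerin without signalling in the usual way and is made by activated leukocytes. Only transcripts were measured here, not secreted protein.

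The median cell had 736455 reads on genes, the shallowest 41 and the deepest 5361476, and 47 cells had fewer than 50000. The other 164 cells are called deep. The 13 cells of P60 capture 10c had a median of 451 reads, and the smallest capture, 17c, held 3 cells. The labels call the cells supporting cells. In the counts, the 14 neutrophil markers took 10.2% of all reads and 179 of 211 cells held at least 3 of them at 10 or more reads, while the 15 SC markers made up 0.0530% and were present, again 3 or more of them, in 8 cells. Of these SC markers, Lfng had 10 or more reads in 84 cells, S100a1 in 39 cells and Tectb in 8 cells, whereas Hes5 and Matn4 had no read in any cell. The monocyte and macrophage list took 0.210% of reads, the endothelial list 0.0137% and the hair cell list 0.00569%. The labelled identity was therefore not borne out by these markers, and the cells are called by the transcripts they held.

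The members lie in 4 places of the mouse genome (GRCm38). Ccl9, Ccl6, Ccl3 and Ccl4 occupy 91765 bases of chromosome 11. On the minus strand lie Ccl9 (ENSMUSG00000019122.8, chr11:83572919-83578636), Ccl6 (ENSMUSG00000018927.3, chr11:83587882-83593087) and Ccl3 (ENSMUSG00000000982.5, chr11:83647844-83649355), and on the plus strand lies Ccl4 (ENSMUSG00000018930.3, chr11:83662584-83664683). Cxcl1 (ENSMUSG00000029380.11, chr5:90891241-90893115) and Cxcl2 (ENSMUSG00000058427.10, chr5:90903871-90905938) share 14698 bases of chromosome 5 on the plus strand. Tnf (ENSMUSG00000024401.14) lies at chr17:35199381-35202007 and Ccrl2 (ENSMUSG00000043953.12) at chr9:111054486-111057519, both on the minus strand. Ccl6 is overlapped on the other strand by E230016K23Rik, which had 1322 reads in 10 cells. Reads of such a pair cannot be told apart without strand, but the overlapping gene had far fewer reads than the 317922 of Ccl6.

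Short stretches before the start sites are shown for the members whose promoter windows held one of 2 searched motifs, because several members were found in the same cells. The windows reached from 250 bases before to 50 bases after each start (RefSeq, GRCm38), and windows were at hand for 7 of the 8 members, Ccl4 being the one without. The κB motif, the binding sequence of NF-κB, and the TATA box TATAAA were searched on both strands. Each stretch is written along the gene's own strand with the matched letters in capitals:
Cxcl1, κB motif, 71 bases before the start, chr5:90891165-90891193, plus strand: ctgtactccGGGAATTTCCCtggcccgga
Cxcl2, κB motif, 97 bases before the start, chr5:90903793-90903821, plus strand: ctgagctcaGGGAATTTCCCtggtccccg
Ccrl2, κB motif, 56 bases before 1 of its 3 starts, chr9:111057556-111057583, minus strand: ctttcccccGGGGCTTCCCctgagcggg
Ccl9, κB motif on the other strand, 35 bases before the start, chr11:83578653-83578680, minus strand: ttgaactttGGAAAGCCCCaagtcacct
Ccl9, TATA box on both strands, 94 bases before the start, chr11:83578714-83578739, minus strand: tgaatgaatTTTATAAAaggagaaat
Tnf, TATA box, 29 bases before the start, chr17:35202022-35202045, minus strand: cccaagggcTATAAAggcggccgt
The matched letters of Cxcl1 and Cxcl2 were the same. The κB motif was thus in a window of 4 of the 7 members, beside 9.55% of 27025 genes, and the TATA box in those of 2, Ccl9 and Tnf, beside 15.7% of genes. Counted by window, all genes held them in 8.46% and 13.6% of 32851 windows. A second TATA match in the Ccl9 window lay 224 bases before the start on the other strand. The windows of Ccl3 and Ccl6 held neither motif, which says only that these letters were not in those windows.

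The members differed widely in how much was made and by how many cells. Together they took 0.554% of all reads, and 159 of 211 cells held 10 or more reads of at least 1 member. In counts per kilobase of exon, scaled to the reads on genes (CPM per kilobase, where CPM are counts per 1e6 reads), the level over all cells was highest for Ccl4 at 1263, followed by Ccl3 at 981, Ccl6 at 804.5 and Cxcl2 at 802. Ccrl2 stood at 245, Tnf at 69.6, Ccl9 at 32.7 and Cxcl1 at 0.482. The ranges over the 12 captures of each gene and the next in this order overlapped. Within captures, Ccl4, Ccl3, Ccl6 and Cxcl2 had no steady order, Ccl4 being above Ccl3 in 6 of 12, Ccl3 above Ccl6 in 7 and Ccl6 above Cxcl2 in 5. Cxcl2 was above Ccrl2 in 10 of 12, Ccrl2 above Tnf in 11 and Tnf above Ccl9 in 10. Cxcl1 was close to absent, with 199 reads in 5 cells, of which 1 cell held 88.9%.

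Cxcl2 and Ccl6 were the most widely held. A read of Cxcl2 was found in 173 of 211 cells, a share of 82% (exact Clopper-Pearson 95% interval 76.1 to 86.9), and 10 or more reads in 110 cells. A read of Ccl6 was found in 168 cells, and 49.3% of all cells had 10 or more. Ccl3 had a read in 140 cells and Ccl4 in 132 cells, but 10 or more reads in 73 cells and 51 cells, so in many cells these genes were at the level of a few reads. The corresponding counts were 127 cells and 74 cells for Ccrl2, 80 and 46 for Tnf, and 34 and 16 for Ccl9. Cells with 1 to 9 reads carried very little of each gene, from 0.0516% of the reads of Ccl6 to 0.374% of those of Tnf, and 2.01% for Cxcl1. The intervals cover counting error only, since reads without molecular identifiers are not independent molecules.

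The reads were concentrated in few cells, to a degree that differed between members (plot of cumulative reads by cell). The 5 cells with most reads held 35.4% of the reads of Ccrl2, 35.8% of Ccl6, 36.1% of Cxcl2 and 41% of Ccl3, but 53.3% of Tnf, 53.6% of Ccl4 and 84.4% of Ccl9. As a comparison, the median was 35% over the 436 genes with at least 1000 reads that were found in 120 to 180 cells, and 82.1% over all 9176 genes with at least 1000 reads. By reads, Cxcl2, Ccl6, Ccl3 and Ccrl2 therefore lay within the middle 50% of the genes of similar spread, 27.2% to 43.7%, and Ccl4, in 132 cells, lay above it. Reads weight the deeper cells. In CPM over deep cells, the top 5 cells held 43% of Ccl4, 38.4% of Ccl3, 36.5% of Ccrl2, 30.3% of Cxcl2 and 27.4% of Ccl6. For Tnf and Ccl9 they held 62.5% and 83.4%. The other genes were compared by reads only, so the place of Ccl4 rests on that measure. The number of cells that held 90% of a gene's reads was 40 for Cxcl2, 39 for Ccl6, 30 for Ccl3, 29 for Ccrl2, 20 for Ccl4, 17 for Tnf and 7 for Ccl9. Leaving out 1 capture at a time moved the share of the top 5 cells of Ccl4 between 51.1% and 60.5%, the lowest without capture 32, and that of Cxcl2 between 32.7% and 41.2%, the lowest without capture 28.

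**Figure D1:**
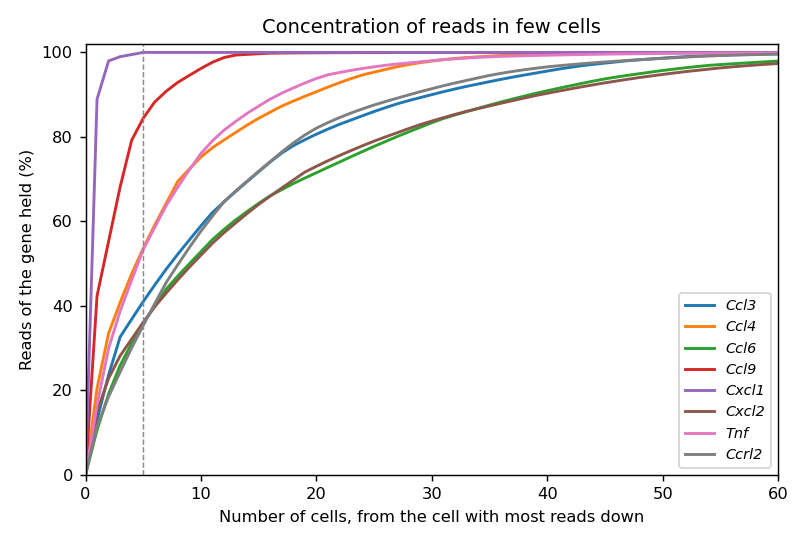
Cumulative share of each gene's reads (vertical axis, %) against the number of cells, counted from the cell with most reads down (horizontal axis, first 60 of 211 cells). The dashed line marks 5 cells, where the lines run from 35.4% for Ccrl2 to 84.4% for Ccl9 and 100% for Cxcl1.

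The cells at the top of these lists were of different kinds. Primary granule genes (Mpo, Elane, Prtn3 and Ctsg) are made by granulocyte precursors and are shut off before a neutrophil matures. A cell was counted as with primary granule transcripts if at least 2 of the 4 had 10 or more reads (53 cells), and as without them if none had (142 cells). A further 16 cells held 1 of the 4 and entered neither class. Basophil and mast cell genes, such as the protease genes Mcpt8 and Prss34 and the IgE receptor chain gene Fcer1a, were held by 18 cells, at 10 or more reads of at least 3 of 8 genes. Of these cells 17 were also with primary granule transcripts, and 16 came from the P120 captures 28 and 32.

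Pooled over deep cells, Ccl4, Ccl9 and Ccl3 stood at 2901, 524 and 1944 CPM in the cells with basophil genes. In those without primary granule transcripts the levels were 745, 24.4 and 823 CPM. The top Ccl4 cell, from capture 32, held 37609 reads of Ccl4 and 21567 of Ccl3, the most of either gene in any cell, with all 8 basophil genes and 1 read of Cxcl2. The next 2 cells for Ccl4, with 23831 and 13407 reads, were also from capture 32 and also held all 8 basophil genes. The second of the 3 was by reads the top cell for Ccl9 as well, with 9272 reads or 42.4% of all Ccl9 reads. By reads it was also the second for Tnf, with 3359 reads. The 17 cells with basophil genes at 50000 or more reads held 73.2% of Ccl9 reads, 48.4% of Ccl4 reads and 35.9% of Ccl3 reads, beside 0.877% of Cxcl2 reads and 1.38% of Ccrl2 reads. In these 17 cells, 13 had 10 or more reads of Ccl3 and 13 had 10 or more of Ccl4, shares of 76.5% (interval 50.1 to 93.2). The deep cells without primary granule transcripts held a like or larger part of both genes, 47.3% of Ccl4 reads and 57.9% of Ccl3 reads. Among them, 28.8% had 10 or more reads of Ccl4 and 45.2% had 10 or more of Ccl3. Depth differed, with a median of 1838531 reads in the 17 cells with basophil genes and 754554 in those without primary granule transcripts. With each cell thinned at random to 50000 reads, Ccl4 had a read in 64.7% of the former and 35.6% of the latter. For Ccl3 these shares were 70.6% and 48.1%.

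A further 33 deep cells held primary granule transcripts but fewer than 3 basophil genes. Ccl4 had 10 or more reads in 2 of the 33 cells and held 61.1 CPM, against 2901 CPM in the cells with basophil genes. Cxcl2 had 10 or more reads in 9 of the 33 (27.3%, interval 13.3 to 45.5), beside 35.3% (interval 14.2 to 61.7) in the cells with basophil genes, and held 1249 CPM, of which a single cell of capture 28 gave most, with 54851 reads of Cxcl2, the most in any cell. Ccl9 had 10 or more reads in 6 of the 33 cells, at 34.4 CPM, and in 1 deep cell without primary granule transcripts (0.962% of them), from capture 28, with 2823 reads. That last cell held 0 basophil genes at 10 or more reads. Its 6480 CPM of Ccl9 was the highest level in any cell, against 3725 CPM in the top cell by reads.

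Cxcl2, Ccl6 and Ccrl2 were held mainly by cells without primary granule transcripts. Among the deep cells of this kind, Cxcl2 had 10 or more reads in 76 cells (73.1%, interval 63.5 to 81.3), Ccl6 in 73 cells (70.2%, interval 60.4 to 78.8) and Ccrl2 in 55 cells (52.9%, interval 42.9 to 62.8). These cells held 89.3% of all Ccl6 reads, 96.8% of all Ccrl2 reads and 77.6% of all Cxcl2 reads. Of these cells 100 held at least 3 neutrophil genes and fewer than 3 basophil genes. The median cell of the 100 held 1359 CPM of Cxcl2, 898 CPM of Ccl6 and 70.8 CPM of Ccrl2, and 0 CPM of Tnf, which had 10 or more reads in 25 of them. Tnf was spread over both classes at like shares, 25% of deep cells without and 30% of deep cells with primary granule transcripts.

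Other cell types gave few cells to compare. Of the 16 cells with at least 3 monocyte and macrophage genes, 15 also held at least 3 neutrophil genes, 12 had 10 or more reads of Cxcl2, 11 of Ccl6, 7 of Tnf and 1 of Ccl9. The 7 deep cells with at least 3 SC genes came from 4 captures, and 5 of the 7 also held at least 3 neutrophil genes. In these 7 cells Cxcl2, Ccl3 and Ccrl2 had 10 or more reads in 3 each, and the pooled level was 195 CPM for Cxcl2, against 1714 CPM in the 157 other deep cells. The 11 deep cells with fewer than 3 neutrophil genes came from 5 captures, and in them Ccl3 and Ccl4 each had 10 or more reads in 5 cells, Cxcl2 in 1 and Ccl6 in 1. These 11 were not a separate kind, since they included cells with basophil genes already counted above, the top Ccl4 cell of capture 32 among them. Most of those with 10 or more reads of Ccl3 or Ccl4 were such cells. No doublets were called, and their part in these overlaps was not tested.

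**Figure D2:**
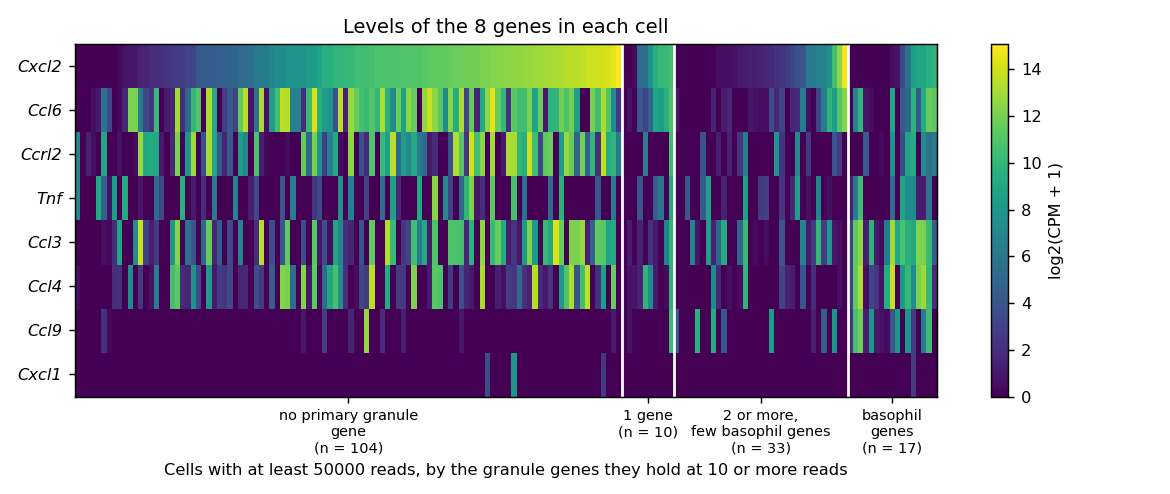
Level of each gene, log2(CPM + 1), in the 164 cells with at least 50000 reads (columns). From left to right the blocks hold cells with no primary granule gene at 10 reads, with 1, with 2 or more but under 3 basophil genes, and with at least 3 basophil genes, each sorted by Cxcl2. Cxcl2, Ccl6 and Ccrl2 are mostly bright in the first block, while in the last Ccl3 and Ccl4 had 10 or more reads in 13 of 17 cells and Ccl9 in 8.

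To ask whether the 2 classes differed beyond the spread between captures, counts were summed per capture and class and compared within captures with edgeR. The 3 captures with at least 5 cells of each class were 40 at P60 and 28 and 32 at P120. In capture 32 every cell with primary granule transcripts also held at least 3 basophil genes. In capture 28 some did, and in capture 40 none did. The class was thus a different mix of cells in each capture, and the parts of this mix were not tested apart. Of 7647 genes tested, 9 were higher and 36 lower in cells with primary granule transcripts at an adjusted p of 0.05, which is 0.588% of genes (0.118% higher and 0.471% lower), and 0 of the 7 tested members were called by edgeR. DESeq2 called 4 members, Ccl6, Cxcl2 and Ccrl2 lower and Ccl9 higher, but it called 44.8% of all genes (30% higher and 14.8% lower). At an unadjusted p of 0.05, 1388 genes and 3 members passed, the members being Ccl6, Ccrl2 and Cxcl2. Cxcl1 had too few reads for the test.

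For Ccl6 the sums in cells without primary granule transcripts were 953 CPM in capture 40, 1997 CPM in capture 28 and 1815 CPM in capture 32. In the cells with them the sums were 110, 541 and 251 CPM. Every value of the first class was above every value of the second, as for 37.3% of all genes tested in one direction or the other. The fitted log2 ratio, with over without, was -3.78 ± 1.08 (SE, adjusted p = 0.0707 in edgeR's quasi-likelihood test). The median of all genes tested was 2.23 on this scale, and with scaling by total counts it was 3.41.

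Ccrl2 was lower in cells with primary granule transcripts in all 3 captures, at 1.78 against 55.1 CPM in capture 40, 28.3 against 457 CPM in capture 28 and 75.3 against 1274 CPM in capture 32. The log2 ratio was -5.51 ± 1.73 (adjusted p = 0.135, edgeR). In all, 5.92% of the genes tested were lower in all 3 captures, Ccl6 and Ccrl2 among them, while 45.4% were higher in all 3. Cxcl2 was lower in captures 40 and 32, at 30.7 against 136 CPM and 55.3 against 3913 CPM, but higher in capture 28, at 2539 against 1495 CPM, where the single cell named above held 54851 of 66510 reads. Its log2 ratio was -3.58 ± 1.18 (adjusted p = 0.135, edgeR).

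Ccl9 was the one member with a large ratio in the other direction, 5.98 ± 4.17 (adjusted p = 0.477, edgeR), and its error was of a similar size. The sums of Ccl9 with and without primary granule transcripts were 76 and 0.463 CPM in capture 40, 106.4 and 245 CPM in capture 28, and 463 and 0 CPM in capture 32. Single cells carried both classes, since 1 cell held 9272 of the 10457 reads with primary granule transcripts in capture 32 and 1 cell held 2823 of the 2825 reads without them in capture 28. Ccl3 (-0.05 ± 1.17), Ccl4 (0.18 ± 1.94) and Tnf (-0.80 ± 2.31) had ratios near 0 or smaller than their errors, and the sign of each turned with another scaling, tool or choice of captures.

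With 3 or more cells of each class as the minimum, 6 captures entered and 3 members were called lower in cells with primary granule transcripts, against 1.52% of the 6582 genes tested in that direction (1.73% were called higher, 3.25% in all). Their edgeR log2 ratios were -6.25 ± 1.22 for Ccrl2 (adjusted p = 0.0124), -4.17 ± 0.88 for Ccl6 (adjusted p = 0.0203) and -3.71 ± 0.95 for Cxcl2 (adjusted p = 0.0417). Ccrl2 and Ccl6 were lower in 6 of 6 captures, as 2.98% of all genes were, and Cxcl2 in 5 of 6. The ranges of the 2 classes did not overlap for 8.25% of genes over the 6 captures, and 17% were higher in all 6. Leaving out 1 of the 6 captures kept Ccrl2 under 0.05 each time, with an adjusted p between 0.00469 and 0.0407. Ccl6 had an adjusted p of 0.0573 without capture 9c, and Cxcl2 was over 0.05 in 5 of the 6 fits, all but the one without capture 28. Ccl9 was higher in 5 of 6 captures with a log2 ratio of 7.99 ± 2.62 (adjusted p = 0.0904).

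The classes differed in depth, with a median of 1809759 reads in the deep cells with primary granule transcripts and 754554 in those without, so shares were also compared after each cell was thinned to 50000 reads. Over the 3 captures, Cxcl2 was found in 33.9% ± 9.2 of cells with and 77.8% ± 29.4 of cells without primary granule transcripts (mean ± SD of captures). For Ccl6 the shares were 36.6% ± 3.3 and 64.3% ± 18.8. Both genes were less frequent with primary granule transcripts in 3 of 3 captures, and in 6 of 6 with the lower minimum of cells. Ccrl2 was found in 24.1% ± 25.1 of cells with and 35.4% ± 32.8 of cells without, lower in 2 of 3 captures (exact sign-flip p = 0.5), and in 4 of 6 with 1 higher (exact p = 0.125). An exact two-sided sign-flip test over 3 captures cannot go below p = 0.25, which Cxcl2 and Ccl6 reached (adjusted p = 0.497), and over 6 captures they reached the smallest value, 0.0313 (exact, adjusted p = 0.123). No gene of 7647 passed the adjusted threshold over 3 captures or of 6582 over 6, 0% in both. Of the 13 neutrophil markers tested over the 3 captures, 6 were called lower in the cells with primary granule transcripts, beside 0.471% of all genes. S100a9 had a log2 ratio of -2.41, and 0 of these markers were called higher. In the same edgeR fit 0 of the 7 tested members were called.

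**Figure D3:**
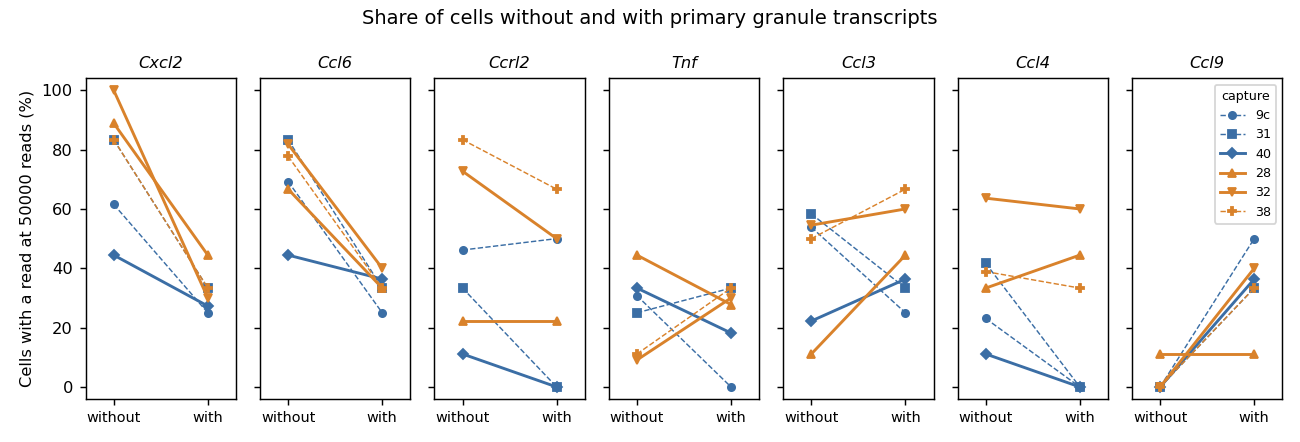
Share of cells (%) with a read of each gene after thinning to 50000 reads, in cells without and with primary granule transcripts of the same capture, joined by a line. Blue lines are P60 and orange lines P120 captures. Solid lines are the 3 captures with at least 5 cells of each class and dashed lines those with 3 or 4 cells of one class. All 6 lines fall for Cxcl2 and Ccl6, and 5 of 6 rise for Ccl9.

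The second comparison asked whether the members differed between P60 and P120. Counts were summed per capture and tested over the 12 captures. In edgeR's fit 10 of 8346 genes were called, 5 higher and 5 lower at P120, or 0.12% of those tested (0.0599% in each direction), and 0 of the 7 tested members were among them, with every adjusted p at 1. At an unadjusted p of 0.05, 443 genes and 0 members passed, and DESeq2 called 14 genes and 0 members. The capture ranges of the 2 ages overlapped for all 8 members, as they did for all but 0.419% of the genes tested.

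Ccl3 at P60 ranged over the captures from 23.5 CPM in 17c to 1910 CPM in 20c, with a median of 282 CPM. At P120 it was 396 CPM in capture 28, 2094 in 32, 831 in 36 and 1173 in 38. The P120 values were all within the P60 range or just above its highest, and the log2 ratio, P120 over P60, was 1.3 ± 1.32 (SE, adjusted p = 1, edgeR). Ccl4 ranged from 34.5 CPM in 21c to 3004 CPM in 20c at P60, median 327 CPM. Its P120 values were 250, 2828, 621 and 801 CPM in captures 28, 32, 36 and 38, and its log2 ratio was 0.39 ± 1.33. Ccl3 and Ccl4 were thus both highest at P60 in capture 20c and at P120 in capture 32.

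Ccl6 had no read in capture 17c and reached 4519 CPM in 21c at P60, with a median of 948 CPM. At P120 it was 899 CPM in capture 28, 757 in 32, 4648 in 36 and 2135 in 38, and its log2 ratio was 1.24 ± 1.26. Capture 36 decided the sign, since without it the ratio was -0.32. Cxcl2 was lowest at P60 in capture 40, with 79.8 CPM, and highest in 20c, with 8812 CPM, around a median of 2169 CPM. Its P120 values were 1990, 1302, 3385 and 436 CPM in the same order of captures, and its log2 ratio was -0.44 ± 1.29.

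Ccrl2 ranged from 8.43 CPM in 17c to 5124 CPM in 20c at P60, median 360 CPM, and was 136, 463, 1946 and 1044 CPM in P120 captures 28, 32, 36 and 38, a log2 ratio of 0.07 ± 1.32. Tnf had no read in 17c and 803 CPM in 20c at P60, median 81.5 CPM, and 74.6, 143, 53.9 and 92.5 CPM at P120, a log2 ratio of -1.12 ± 1.68. The genes Ccl3, Ccl4, Cxcl2, Tnf and Ccrl2 had their highest P60 level in capture 20c, and so did Cxcl1 with 25.9 CPM.

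Ccl9 was listed at 0 reads in 4 of the 8 P60 captures, had a median of 0.106 CPM, and reached 129 CPM in 9c. At P120 it was 127 CPM in capture 28, 313 in 32, 0 in 36 and 108.1 in 38. The log2 ratio was 2.93 ± 1.91 (adjusted p = 1, edgeR). Cells with primary granule transcripts numbered 20 at P60 and 33 at P120, with 0 in capture 36, and the 4 P60 captures without Ccl9 held none but the 1 in 17c. Capture 19c also held 0 such cells, but had 1 read of Ccl9. In capture 28, 1 cell without primary granule transcripts gave 2823 of the 5613 Ccl9 reads. The part of these cell numbers in the Ccl9 levels was not tested. Within cells without primary granule transcripts, added as an alternative, Ccl9 was too rare to test and 0 of the 6 tested members were called. Of 7 basophil genes tested between ages edgeR called 1, Il6, higher at P120 by a log2 ratio of 10.76 (adjusted p = 0.00997). Il6 had 10 or more reads in 10 cells, and 17 of the 18 cells with basophil genes were from P120. The part of these cell numbers in the call of Il6 was not tested.

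**Figure D4:**
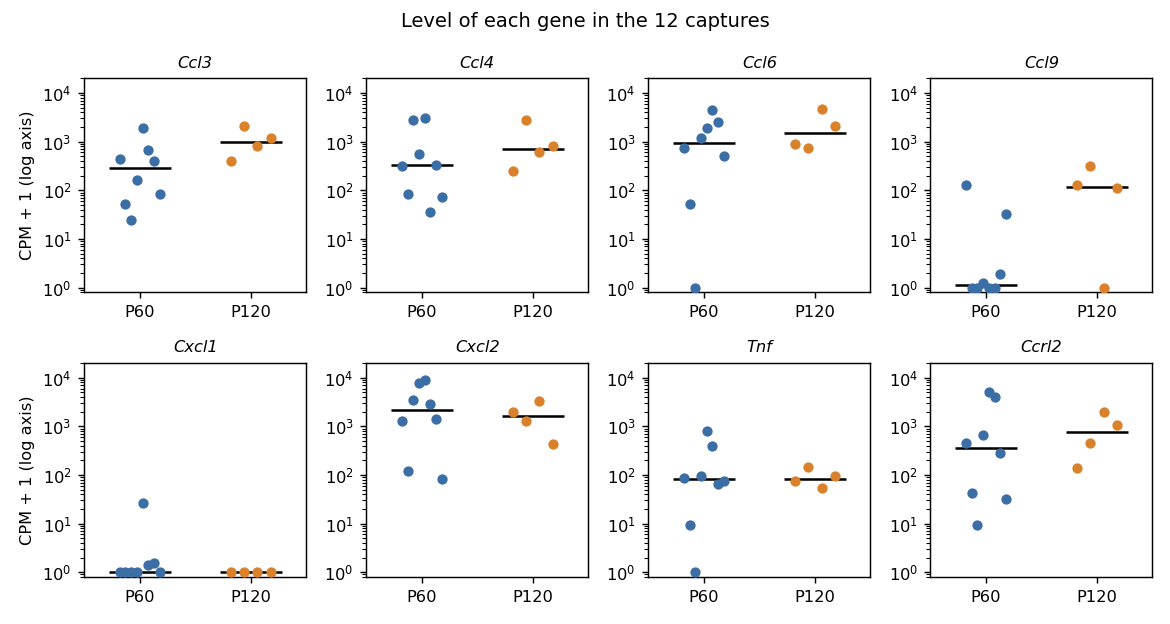
Level of each gene in the summed counts of each capture, as CPM + 1 on a log axis, for 8 P60 captures (blue) and 4 P120 captures (orange), with black lines at the medians. The points of both ages overlap for every gene, and Ccl9 has captures at 0 CPM at both ages.

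Age and sequencing run were partly tied, since 6 P60 captures were in run S047, while cells of the 2 others and of all 4 P120 captures were in runs S059iso1 and S059iso2. These runs were taken as one. With run as a term, all 7 log2 ratios were positive, from 0.48 for Tnf to 3.17 for Ccrl2, with standard errors of 1.96 to 3.29, and 0 were called. Among the 6 captures of the S059 runs alone, 0 members were called as well, Ccrl2 being the 1 member with an unadjusted p under 0.05 (log2 ratio 3.16 ± 1.56, adjusted p = 0.67, edgeR).

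The share of cells with a read showed the same overlap. Ccl4 differed most, with a read in 44 cells at P60 (43.1%, interval 33.4 to 53.3) and 88 at P120 (80.7%, interval 72.1 to 87.7). The mean share over captures was 48.6% ± 25.7 (SD, n = 8) and 84.2% ± 15.5 (n = 4), a difference of 35.6 points (exact two-sided permutation test over the 495 arrangements of captures, p = 0.0364, adjusted p = 1 over 8346 genes). At 10 or more reads the difference was 14.2 points (exact permutation p = 0.0444, adjusted p = 1). At 50000 reads per cell it was 10.5 points (exact permutation p = 0.547, adjusted p = 1), where capture 10c had a single cell, which held Ccl4. Without capture 10c the thinned shares were 25.4% ± 13.6 (n = 7) and 45.2% ± 11.9 (n = 4), a difference of 19.9 points (exact permutation p = 0.0394, adjusted p = 1). For the other 6 tested members the unadjusted p lay between 0.174 for Ccl6 and 0.859 for Ccrl2 in the same exact test. No gene of the 8346 passed the adjusted threshold (0%), and 495 arrangements allow no p below 0.00202.

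Members were often found in the same cell. Of the 164 cells with at least 50000 reads, 20 held no member at 10 or more reads, 25 held 1, 91 held 2 to 4 and 28 held 5 or more. The median cell held 3 and 3 cells held 7. At P60 13 of 80 cells held 5 or more (16.25%) and at P120 15 of 84 (17.9%). Across the 21 pairs of the 7 members other than Cxcl1, the median Pearson correlation of log2(CPM + 1) over these cells was 0.18, from -0.16 to 0.63, and 7 pairs were above 0.3. The cells share captures and differ in depth, and within captures the median was 0.17, with 4 pairs above 0.3. These correlations are descriptions over cells that are not independent.

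The closest pair was Ccl6 and Cxcl2, with a Pearson correlation of 0.63 over 164 cells (Spearman 0.60), and 0.59 once capture means were removed. Over all 211 cells, the pair had 10 or more reads together in 85, where the product of the shares in each capture gives 59.7. That count takes in the shallow cells, and among the deep cells it was 80 against 61.5. With the deep cells thinned to equal depth, both genes had a read in 87 cells, against 67.1. The correlation of the pair was positive in 6 of the 7 captures with at least 8 deep cells, and was 0.70 at P60 and 0.55 at P120. The correlation was 0.75 among cells with and 0.44 among cells without primary granule transcripts.

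Ccl3 and Ccl4, neighbours on chromosome 11, came next with 0.49 (Spearman 0.49). Over all 211 cells, both had 10 or more reads in 38, where the product of the shares gives 19.9. Among the deep cells this was 37 against 22.3. With the deep cells thinned to equal depth, both had a read in 37 cells, against 25.9. Their correlation was 0.29 over the 80 P60 cells and 0.65 over the 84 P120 cells, a difference that was not tested. Without the cells with basophil genes it was 0.30 at P60 (79 cells) and 0.54 at P120 (68 cells), and without capture 32 it was 0.62 at P120 (63 cells). Among the cells with primary granule transcripts, which include the deep cells with basophil genes, it was 0.74, and among those without 0.38.

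Ccrl2 correlated with Cxcl2 at 0.44, with Ccl6 and Ccl3 at 0.38 each and with Ccl4 at 0.31. Once capture means were removed these were 0.31, 0.27, 0.28 and 0.28. Over all cells Ccl9 had the lowest value of any pair with Cxcl2, -0.16, and 0.18 with Ccl4, which was -0.01 without the cells with basophil genes. Among the cells with primary granule transcripts Ccl9 was at 0.43 with Ccl4, 0.36 with Ccl3 and 0.30 with Ccl6. The highest value of Tnf with the 6 others was 0.15 over all cells, with Ccl3. Among the cells with primary granule transcripts Tnf was at 0.53 with Ccl3 and 0.48 with Ccl4. These 50 deep cells include the 17 deep cells with basophil genes, and values of the class without those 17 were not computed. Over all cells and at P60, Ccl6 and Cxcl2, from different chromosomes, had a higher correlation than any pair of the chromosome 11 genes, and at P120 Ccl3 and Ccl4 had a higher one.

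**Figure D5:**
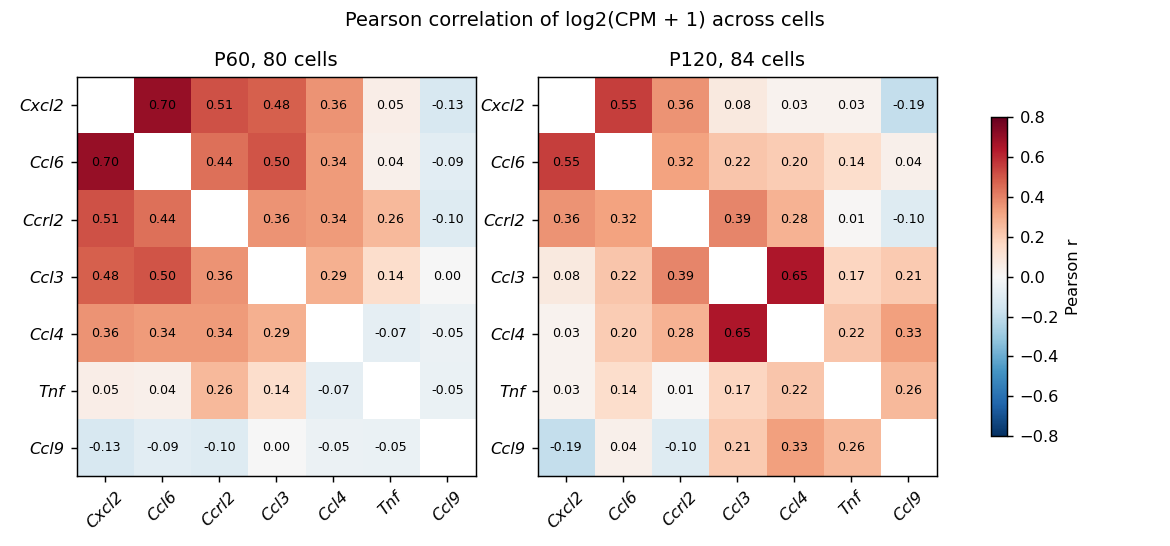
Pearson correlation of log2(CPM + 1) between pairs of members across the cells with at least 50000 reads, 80 cells at P60 (left) and 84 at P120 (right). Red is positive and blue negative. Cxcl2 with Ccl6 is highest at P60 (0.70) and Ccl3 with Ccl4 at P120 (0.65).

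Genes outside the set with the most similar pattern were sought among 7082 genes with a read in at least 20 of the 164 cells. For Ccl6 these were Il1b, which encodes the cytokine interleukin-1β (0.68), and Il1r2, its decoy receptor (0.65), followed by Cxcl2. The same genes led for Cxcl2, with Il1r2 at 0.66 and Il1b at 0.64, followed by Trem1, an activating receptor of neutrophils and monocytes (0.63). For Ccrl2 they were the kinase gene Pim1 (0.54), Il1b (0.53) and the stress-induced transcription factor gene Atf3 (0.49). Ccl3 had Plek, which encodes the leukocyte protein pleckstrin (0.50), Ccl4 and Pim1 (0.46), and Ccl4 had Ccl3, the interferon-induced Ifitm1 (0.42) and Plek (0.41). Ccl9 was most like Lgals1, the galectin-1 gene (0.66), Mns1 (0.60) and Tex2 (0.60). No gene was above 0.35 for Tnf, where Gid8, Fam129a (0.31) and Tarm1 (0.31) led. The median correlation with all 7082 genes was between -0.20 for Cxcl2 and 0.14 for Ccl9.

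Some members also varied with the GFP signal of the cell, a normalized intensity score deposited for each cell. The median score was 411 in deep cells with 10 or more reads of Cxcl2 and 206.5 in those with fewer. For Ccl6 the medians were 384 and 218, while for Ccl9 they were reversed, at 134.5 and 364.5. They were 384 and 287.5 for Ccrl2, 311 and 360.5 for Ccl3, 356 and 327 for Ccl4, and 300 and 360 for Tnf. The Pearson correlation with the score over 164 cells was 0.38 for Cxcl2, 0.31 for Ccl6, 0.21 for Ccrl2 and -0.26 for Ccl9, and near 0 for Ccl3 (-0.02), Ccl4 (0.04) and Tnf (-0.04). Depth moved with these as well, since the cells with Cxcl2 had a median of 857963 reads and those without 1675214. The GFP values were also pooled over captures, sequencing runs and cell classes. The part of depth and of these in the GFP values was not tested.

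The rest of the chemokine and TNF pathways was represented unevenly. Of 30 other chemokine ligands, 19 had a read in some cell and 3 passed the filter for the age comparison, of which 0 were called at a median log2 ratio of 0.01, beside 0.26 over all genes. Those with most reads were Ccl5 at 218 CPM, with 10 or more reads in 4 cells, Cxcl12 at 71.7 CPM, in 1 cell, and Ccl2 at 68.5 CPM, in 11 cells. Each of these 3 was in fewer cells at this minimum than any member but Cxcl1.

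Receptors for the members were found in the same population. Ccr1 had a read in 167 cells and 799 CPM, Cxcr4, the receptor of Cxcl12, in 164 cells and 469 CPM, and Cxcr2 in 148 cells and 369 CPM. Of 23 chemokine receptors 18 had a read, 4 were tested between ages and 5 between classes, and 0 were called in either. Over 6 captures Ccr1 was called lower in cells with primary granule transcripts (log2 ratio -4.22 ± 0.98, adjusted p = 0.0284, edgeR). The Pearson correlation of Ccr1 was 0.49 with Cxcl2 and 0.47 with Ccl6, and -0.01 with Ccl9.

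Of 15 genes for TNF receptors, shedding and signalling, all had reads, 12 were tested between ages and 12 between classes, and 0 were called. Tnfrsf1a, the main receptor of Tnf, had a read in 111 cells and 178 CPM, Ikbkb, a kinase that activates NF-κB, had 114 CPM, and Adam17, the protease that frees Tnf from the membrane, 110 CPM. Of 16 NF-κB subunits and feedback genes all 16 were tested between ages with 0 called. Zfp36, which encodes a protein that destabilizes Tnf mRNA, had most reads of these at 1339 CPM, followed by Nfkbia, the inhibitor of NF-κB, at 1187 CPM and Nfkbiz at 1006 CPM. Over 6 captures Zfp36 was called lower in cells with primary granule transcripts (log2 ratio -2.75 ± 0.51, adjusted p = 0.0082, edgeR). The correlation of Nfkbia with the members ran from 0.08 for Ccl9 to 0.43 for Ccrl2.

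Among 15 other cytokines, Il1b had most reads, with 3697 CPM and a read in 177 cells. It was 6383 CPM in cells without and 751 CPM in cells with primary granule transcripts, and over 6 captures it was called lower in the latter (log2 ratio -3.91 ± 0.89, adjusted p = 0.0259, edgeR), as was its antagonist gene Il1rn (-6.78 ± 1.51, adjusted p = 0.0244). Il6, at 376 CPM with 10 or more reads in 10 cells, was found almost only at P120, with 732 CPM against 0.0840 CPM. Il6 was itself 1 of the 8 genes of the basophil list.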

How the data were processed

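The authors sorted GFP-positive cochlear cells, made full-length cDNA on the Fluidigm C1, aligned reads with STAR to GRCm38 (mm10 in the submitters' processing notes) and deposited raw read counts per gene without molecular identifiers. Cells with endothelial transcripts and outliers had been removed. A second deposited table gave age, capture, run and a normalized GFP score per cell (how it was normalized is not given in the sources used here). The authors' uniquely mapped read counts were not used.

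Gene symbols came from the GENCODE vM21 table and 48349 of 48709 identifiers matched. The 92 spike-in entries were left out, every column of cell values matched a sample, and no doublet caller was run. Counts were summed per capture and tested with edgeR 4.0.16 in R 4.3.3, using TMM normalization, filterByExpr, the quasi-likelihood F test and Benjamini-Hochberg adjustment at 0.05 over all genes, with the capture as a block for the classes. Standard errors are the log2 ratio over the square root of F. Means of shares were compared by exact permutation in Python 3.11.15 with numpy 2.4.6 and pandas 2.3.3, checked against scipy 1.17.1 on simulated data. Shares at equal depth used cells of at least 50000 reads thinned once at random. Intervals are exact 95% Clopper-Pearson intervals. DESeq2 1.42.0 with poscounts size factors was the other tool. Figures were drawn with matplotlib 3.10.9.

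The members, lists and tests were chosen with earlier results of these data known. All members are named, as are pathway list genes that edgeR called in the age comparison or between classes over 3 or 6 captures. The 3 most abundant genes of each pathway list and the 3 most like each member found in at least 20 cells are named too. Of the called genes of the cell type lists only some are named. Lists of leukocyte, B, T and NK, erythroid, glial and fibroblast genes were measured as well, at 1.03%, 0.0145%, 0.0669%, 0.00111%, 0.0061% and 0.00048% of reads, and lists of primary and specific granule genes at 0.787% and 7.07%. The alternatives with total-count scaling, with captures of the S059 runs only, without capture 10c after thinning, within cells without primary granule transcripts, with 1 of 6 captures left out and without the cells with basophil genes were added after the data were seen.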

Additional observations from a re-analysis of the deposited data

Results flagged for a closer look

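Samples far from the others of their age were looked for in the CPM and in the share of cells with 10 or more reads of each member. Of 31 groups looked at, 5 were flagged. For normally spread values chance flags about 1 such group in 20, but these values, often uneven or 0, need not be spread so. Ccl3 in P60 capture 20c was 1910 CPM, and the next capture 659 CPM. Ccl9 in P60 capture 9c was 129 CPM, and the next capture 31 CPM. Cxcl1 in P60 capture 20c was 25.9 CPM, all from 1 cell, and the next capture 0.558 CPM. The share of cells with 10 or more reads of Cxcl1 was 12.5% in capture 20c, which is 1 of its cells, and 4.35% in the next. Cxcl1 at P120 was 0.0226 CPM in capture 28, from 1 read, and 0 in the other 3 captures.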

How the results depend on the processing

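The number of genes called between ages was 10 as reported, 14 with DESeq2, 22 with no filter on low counts, 5 with scaling by total counts, 7 in deep cells, 1 after thinning, 0 with run as a term, 2 within the S059 runs, 11 in cells without primary granule transcripts, and 1 to 16 with 1 capture left out. No member was called in any of these. Between classes it was 45 as reported, 3426 with DESeq2, 31 with no filter, 40 with scaling by total counts, 44 in deep cells, 14 after thinning, 10 with class genes counted from 1 read, and 18 to 26 with 1 of the 3 captures left out. With 6 captures it was 214, and 65 to 94 with 1 of the 6 left out. Without the capture as a block, the replicate block of this comparison, 1 gene was called. Members called between classes were 4 with DESeq2, 0 with 1 of 3 captures left out, 3 with 6 captures and, with 1 of 6 left out, 1 to 3.

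Some age log2 ratios changed sign. Ccrl2 was -0.14 with no filter, -0.65 with scaling by total counts, -0.031 in deep cells and -0.20 after thinning. Ccl4 was -0.090 after thinning and -1.52 in cells without primary granule transcripts. Cxcl2 and Tnf were 1.70 and 0.48 with run as a term, and 1.68 and 0.49 within the S059 runs. With 1 capture left out, Ccl4 ran from -0.081 (without 32) to 1.19, Ccl6 from -0.32 (without 36) to 1.69, Cxcl2 from -1.90 to 0.037 (without 19c) and Ccrl2 from -1.40 (without 36) to 0.92. Between classes Ccl4 was -0.78 with DESeq2, -3.08 with class genes counted from 1 read and -6.39 with 6 captures. Ccl3 was 1.16 and Tnf 0.41 with scaling by total counts, and Ccl3 was 0.92 after thinning. With 1 of the 3 captures left out, Ccl3 ran from -0.74 to 0.43 and Ccl4 from -5.61 to 3.01. With 1 of the 6 left out, they ran from -1.83 to -0.97 and from -10.2 to -2.85. The pooled share of cells with a read was higher at P120 for 7 of 8 members, for 6 at 10 or more reads, for 4 after thinning, and for 6 to 7 with 1 capture left out. The differences of mean capture shares that turned were -3.92 points for Ccl3, -3.39 for Tnf and -6.59 for Ccrl2 at 10 or more reads, and -0.0127 for Ccl3 and -4.44 for Tnf after thinning (-6.70 and -7.63 without capture 10c). The cause of these changes was not tested.

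Few captures, captures of few or shallow cells, and single cells with many reads limit every comparison.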
